A study of Danio rerio with 9 samples.

Results

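The liver secretes most of the proteins of blood plasma and holds the enzymes that break down surplus amino acids. The log2 signals of 8 such genes were examined in dissected whole eyes of wild type zebrafish larvae at 3, 4 and 5 days post fertilisation (dpf). The genes were ambp, apoa2, crp, fga, fgb, fgg, tat and tfa. A list of 10 liver genes was searched for probe sets whose only gene symbol in the platform annotation was that gene, and 8 of the 10 genes had such a probe set, 1 each, out of 8793 genes that did on the whole array. No probe set carried ttr, the thyroid hormone carrier transthyretin, or hpx, the heme scavenger hemopexin, as its single symbol, so these genes have no value here. The genes were chosen by their signals on these same arrays, with the differences between ages and the spread within an age already known, so their levels and differences are given as a description with no test.

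Each age was measured on 3 Affymetrix Zebrafish Genome Arrays, 9 in all, each hybridised with RNA of whole eyes. All groups share the genotype, which the labels call wild type with no strain given, and no treatment is named. The 3 and 5 dpf arrays are biological replicates per the study's methods, while for 4 dpf only a replicate number is given, so the spread there may be technical. The deposited values are log2 signals made with GCRMA, which subtracts a background, equalises the arrays and gives 1 value per probe set.

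A zebrafish hatches with a yolk and begins to feed at about the ages studied here, while the liver grows out beside the gut. Liver cells release transferrin, apolipoproteins and fibrinogen into the blood, and the blood reaches the eye through vessels around the lens and behind the retina. Messenger RNA of these genes is made chiefly in the liver, and apolipoprotein genes are also expressed in the yolk syncytial layer, the cell layer that passes lipid from the yolk to the larva. A bulk eye sample gives 1 signal over all of its cells, and fewer cells of a type cannot be told apart from less RNA in each cell.

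The arrays resembled each other closely. Their median signals were 5.70 to 5.79 on the log2 scale, and over all probe sets the correlation between arrays of 1 age was 0.983 to 0.995. The lowest signals were 0.95 to 1.00 on the 4 dpf arrays and 1.09 to 1.16 on the arrays of the other ages, and any difference in how the 4 dpf arrays were processed cannot be told apart from age. Most marker genes of the eye were bright on every array. Signals were 14.7 to 15.2 for the ultraviolet opsin opn1sw1 and 13.1 to 13.8 for the cone transducin gnat2. For rpe65a of the pigment epithelium they were 13.2 to 14.5. The lens marker cryaa was dimmer, with means of 7.21, 8.63 and 9.14 at 3, 4 and 5 dpf. The pigment marker tyr was low on every array, at 2.79 to 3.65. Of 6 defining liver markers 4 were measured. fabp10a, the liver fatty acid binding protein, had signals of 3.11 to 3.73 at 3 dpf, 5.33 to 7.26 at 4 dpf and 3.98 to 7.60 at 5 dpf. fetub, a fetuin secreted into plasma, had mean signals of 4.43, 6.80 and 7.44 at 3, 4 and 5 dpf. For cp, the copper oxidase ceruloplasmin, the means were 3.65, 4.44 and 5.10. vtnb, a vitronectin, stayed level with means of 5.33, 5.33 and 5.55, a difference of 5 dpf minus 3 dpf of 0.21 (standard error 0.61).

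Transport proteins were measured by tfa and apoa2. tfa encodes transferrin-a, which carries iron in plasma. Its log2 signals were 9.97, 9.43 and 7.39 at 3 dpf, 10.33, 10.86 and 8.05 at 4 dpf, and 10.97, 9.16 and 10.54 at 5 dpf, for replicates 1, 2 and 3 of each age. The ages overlapped, since the lowest array at 4 dpf and the lowest at 5 dpf lay below the highest at 3 dpf. Mean signals were 8.93 ± 1.36, 9.74 ± 1.49 and 10.22 ± 0.95 at 3, 4 and 5 dpf (SD, n = 3 each). The difference of 5 dpf minus 3 dpf was 1.29 with a standard error of 0.82, and leaving out 3 dpf replicate 3 brought it to 0.52. A further 2 probe sets are annotated to tfa together with gstr and were not used.

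apoa2 encodes apolipoprotein A-II, a component of high density lipoprotein particles in mammals. Its signals were 11.50, 11.09 and 8.94 at 3 dpf, 11.96, 12.94 and 11.14 at 4 dpf, and 11.85, 10.39 and 13.62 at 5 dpf. The 5 dpf arrays spanned both the highest signal of the 9 and one below 2 of the 3 dpf arrays. The mean at 5 dpf, 11.95 ± 1.62, lay 1.45 above that at 3 dpf, 10.51 ± 1.38 (SD, n = 3 each), with a standard error of 1.06.

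One further transport gene bears on the missing members. The annotation names hpxa, and RefSeq lists hpx as a synonym of it, so this probe set fell outside the list by its symbol and was added after its values were seen. It had signals of 1.72 to 1.87 on all 9 arrays, close to the lowest values of the platform. Its SD within an age was 0.02 to 0.04 (n = 3), and its mean at 5 dpf differed from that at 3 dpf by 0.08.

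ambp showed the clearest step between ages. The gene encodes a precursor that is cut into alpha-1-microglobulin, which binds heme, and bikunin, a protease inhibitor. Its signals were 5.77, 4.82 and 3.80 at 3 dpf, 8.31, 8.07 and 8.04 at 4 dpf, and 9.45, 8.65 and 9.85 at 5 dpf. No array of 1 age overlapped another age. The 5 dpf mean was 9.32 ± 0.61 and the 3 dpf mean 4.80 ± 0.99 (SD, n = 3 each), a difference of 4.52 with a standard error of 0.58, or 22.9-fold on the linear scale. Of that, 3.34 lay between 4 and 3 dpf and 1.17 between 5 and 4 dpf.

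crp carries the symbol of C-reactive protein, an acute phase protein of the pentraxin family in humans. Its signals were 2.72, 2.93 and 1.72 at 3 dpf, 7.57, 7.13 and 5.71 at 4 dpf, and 7.24, 4.33 and 7.69 at 5 dpf. All arrays at 4 and 5 dpf lay above all arrays at 3 dpf, where the signal was near the floor. The 4 dpf mean of 6.80 ± 0.98 was 4.35 above the 3 dpf mean of 2.46 ± 0.64, with a standard error of 0.92, while the 5 dpf mean of 6.42 ± 1.83 was 0.38 below the 4 dpf mean (SD, n = 3 each). Because the 3 dpf signals are so low, setting every signal under 4 to 4 reduced the difference of 4 dpf minus 3 dpf to 2.80 and that of 5 dpf minus 3 dpf to 2.42, against 3.97 without that limit. RefSeq has no gene named crp alone and lists 7 genes named crp with a number. Which of these copies the probe set measures was not resolved.

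fga, fgb and fgg encode the alpha, beta and gamma chains of fibrinogen, the precursor of the fibrin clot, which liver cells assemble into 1 protein. In the RefSeq annotation fga and fgb lie on the same chromosome with 1 protein-coding gene between them, whereas 258 lie between fga and fgg. fga had signals of 7.58, 5.78 and 5.02 at 3 dpf, 7.85, 7.81 and 5.82 at 4 dpf, and 7.45, 5.49 and 7.33 at 5 dpf. fgb had signals of 5.09, 3.78 and 2.61 at 3 dpf, 5.74, 6.28 and 4.10 at 4 dpf, and 4.73, 4.36 and 5.54 at 5 dpf. fgg had signals of 6.59, 5.23 and 3.12 at 3 dpf, 6.90, 7.33 and 4.36 at 4 dpf, and 6.30, 5.33 and 7.87 at 5 dpf. In all 3 genes the ages overlapped fully enough that an array at 3 dpf was brighter than an array at each later age. The differences of 5 dpf minus 3 dpf were 0.63 for fga (standard error 0.85), 1.05 for fgb (0.69) and 1.52 for fgg (1.08). All were smaller than the spread at 3 dpf, whose SD was 1.32 for fga, 1.24 for fgb and 1.75 for fgg (n = 3 each).

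tat had its larger step between 4 and 5 dpf. It encodes tyrosine aminotransferase, an enzyme inside the cell that starts the breakdown of tyrosine and that in mammals is induced by glucocorticoids. Its signals were 4.44, 2.98 and 3.24 at 3 dpf, 5.24, 5.00 and 3.92 at 4 dpf, and 7.68, 6.21 and 8.28 at 5 dpf. The 3 and 4 dpf arrays overlapped, and all 5 dpf arrays lay above both. The difference of 5 dpf minus 4 dpf was 2.67 with a standard error of 0.64, and that of 4 dpf minus 3 dpf was 1.17, also with a standard error of 0.64.

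**Figure D1:**
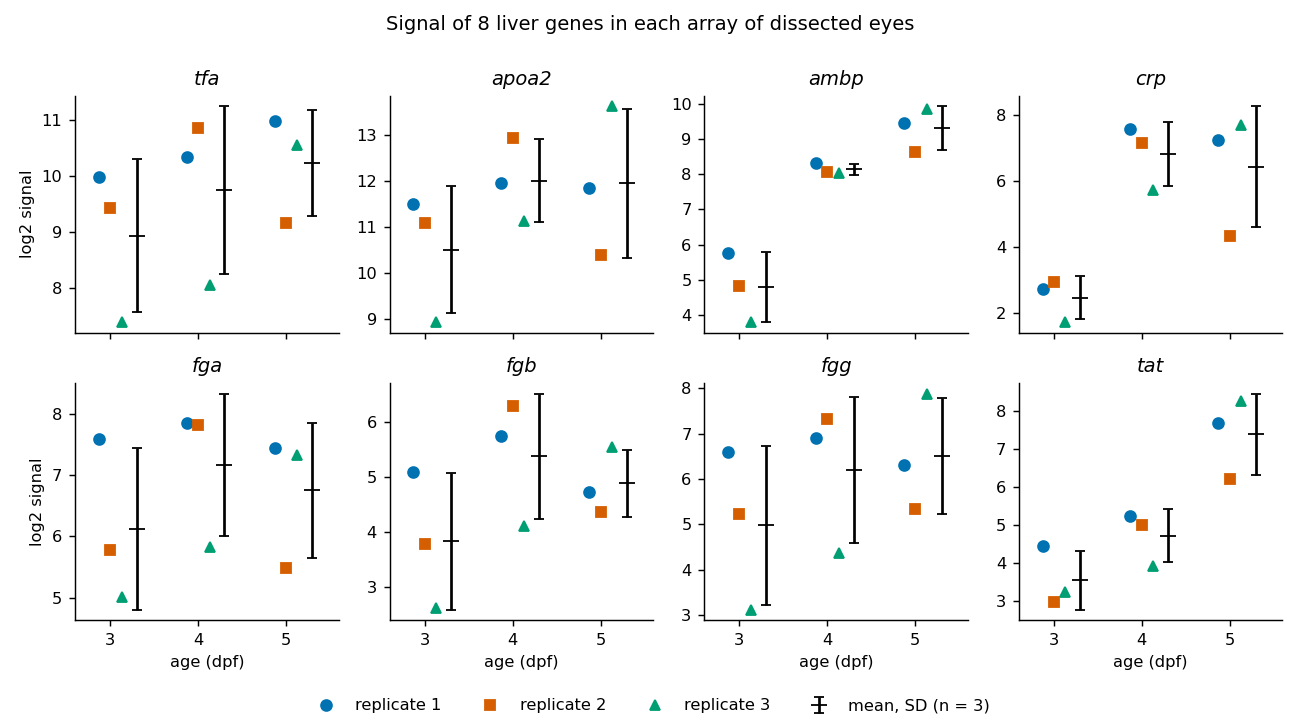
Log2 signal (vertical axis, a scale for each gene) of 8 liver genes in each array of dissected eyes at 3, 4 and 5 dpf. Symbols mark the replicate number and black bars the mean and SD of 3 arrays. ambp and tat have no overlap between 5 and 3 dpf or between 5 and 4 dpf, crp has none between 3 dpf and either later age, and tfa, apoa2 and the fibrinogen genes overlap between all ages.

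Taking the 8 genes together, every mean was lowest at 3 dpf. The highest mean was at 5 dpf for ambp, tfa, fgg and tat, and at 4 dpf for apoa2, fga, fgb and crp, but for apoa2, fga, fgb, fgg, crp and tfa the difference of 5 dpf minus 4 dpf was smaller than its standard error. The median difference of 5 dpf minus 3 dpf was 1.48 over the 8 genes and 0.10 over all 15502 probe sets that are not controls, of which 64.4% had a positive difference. The median of 4 dpf minus 3 dpf was 1.36 over the 8 genes and 0.04 over all probe sets, and that of 5 dpf minus 4 dpf was 0.12 and 0.05. In the last comparison 4 of the 8 genes had a positive difference. No label states a pairing of arrays. For the next comparison only, same-numbered 3 and 4 dpf arrays were treated as pairs. The reason was that their deviations correlated over all probe sets, at 0.60, 0.50 and 0.44. Taken this way, 4 dpf minus 3 dpf was positive in all 3 pairs for 8 of the 8 genes and for 38.7% of all probe sets. Averaged over the pairs the differences were smallest for tfa, at 0.35, 1.43 and 0.66 for replicates 1, 2 and 3, and fga, at 0.27, 2.03 and 0.80. This comparison was made after the values had been seen, with pairs set by these same arrays and genes chosen with their differences known. Nothing is read from it.

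For the array as a whole a probe set was called at an adjusted p under 0.05 in limma's moderated test and a fold change of at least 2. Between 5 and 3 dpf this called 2.97% of all probe sets higher and 2.39% lower, and ambp and tat, 2 of the 8 genes, were among those higher. Between 4 and 3 dpf it called 1.62% higher and 1.66% lower, and 2 of the 8, ambp and crp, were among those higher. Between 5 and 4 dpf 0.264% were called higher and 0.174% lower, and tat was the 1 of the 8 among those higher. Under alternative settings, among them each array left out, ambp kept its call in 11 of 12 against 3 dpf at 5 dpf and in 15 of 15 at 4 dpf. The 4 dpf call of crp held in 9 of 15. For tat the call held in 7 of 12 between 5 and 3 dpf and in 4 of 15 between 5 and 4 dpf. crp was called between 5 and 3 dpf in 4 of 12. Arrays without overlap, higher at the later age, were found for 3 of the 8 genes between 5 and 3 dpf (ambp, crp and tat) and for 41.8% of all probe sets. Between 4 and 3 dpf they were found for 2 of the 8 (ambp and crp) and 29.2% of all, and between 5 and 4 dpf for 2 of the 8 (ambp and tat) and 23.5% of all. These differences were known when the genes were chosen, so nothing is read from the counts.

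**Figure D2:**
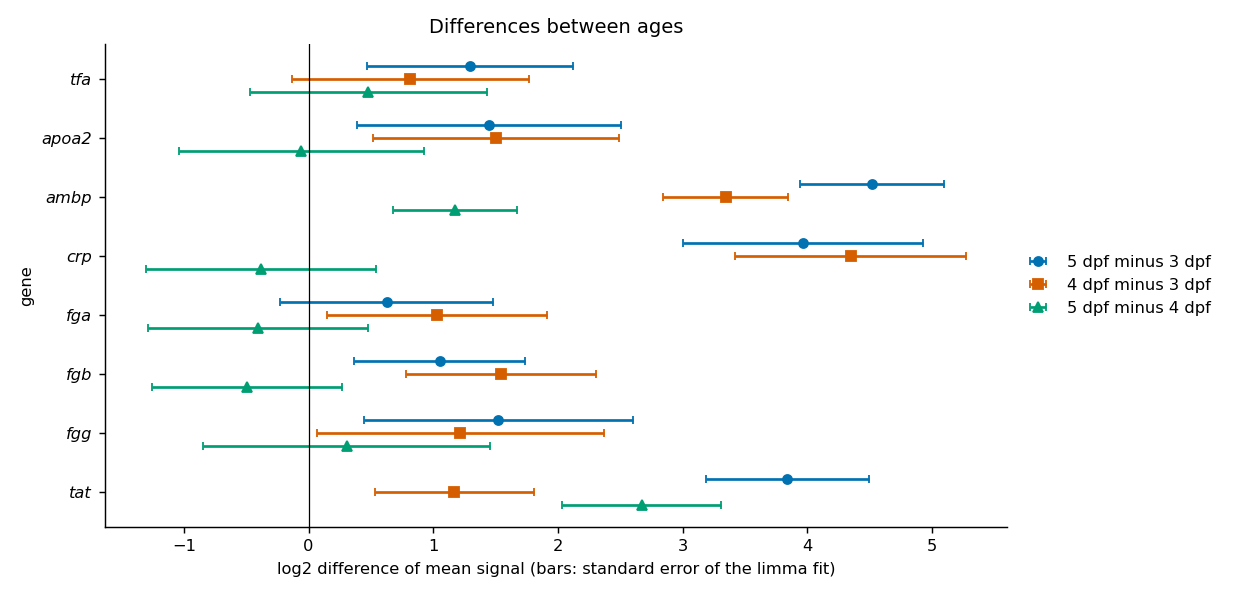
Difference in mean log2 signal between ages (horizontal axis) for each of the 8 genes, as 5 dpf minus 3 dpf, 4 dpf minus 3 dpf and 5 dpf minus 4 dpf, with the standard error of the limma fit as bars. For ambp 3.34 of the 4.52 lies between 4 and 3 dpf, for tat 2.67 of the 3.84 lies between 5 and 4 dpf, and for the fibrinogen genes the bars reach past 0 in 5 dpf minus 4 dpf for all 3 genes and in 5 dpf minus 3 dpf for fga.

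The arrays of 1 age differed from each other far more in these genes than in most others. The SD within an age, pooled over the 3 ages, was 0.68 for ambp, 0.86 for tat and between 1.03 and 1.56 for the other 6 genes. The median over all probe sets was 0.174, and ambp, the least variable of the 8, exceeded 97.7% of them. The genes were chosen with this spread known, so the rank is a description only. All probe sets include dim ones such as hpxa, whose pooled SD was 0.03, and no comparison at like signal was made. The fgg signals at 3 dpf spanned 3.47 log2 units and those of tfa 2.58, while the median signal of the whole array moved by under 0.1 between arrays.

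This spread had a common direction. Replicate 3 at 3 dpf was the lowest of its age in 7 of the 8 genes, the exception being tat. Replicate 3 at 4 dpf was the lowest in 8 of 8, and so was replicate 2 at 5 dpf. Over all probe sets these arrays were the lowest of their age in 20.3%, 43.1% and 45.8%. Averaged over the 8 genes, their deviations from the mean of their ages were -1.17, -1.13 and -1.19 log2 units. Over all probe sets the deviations of these 3 arrays also correlated with each other. The values were 0.44 between the 4 and 3 dpf arrays, 0.50 between the 5 and 4 dpf arrays and 0.21 between the 5 and 3 dpf arrays. The brightest arrays were replicate 1 at 3 dpf, the highest in 7 of 8, and replicate 3 at 5 dpf, the highest in 6 of 8, whereas at 4 dpf replicates 1 and 2 were the highest in 4 each. ambp at 4 dpf was the exception in size, since its 3 arrays there lay within 0.27 of each other while tfa spanned 2.81.

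**Figure D3:**
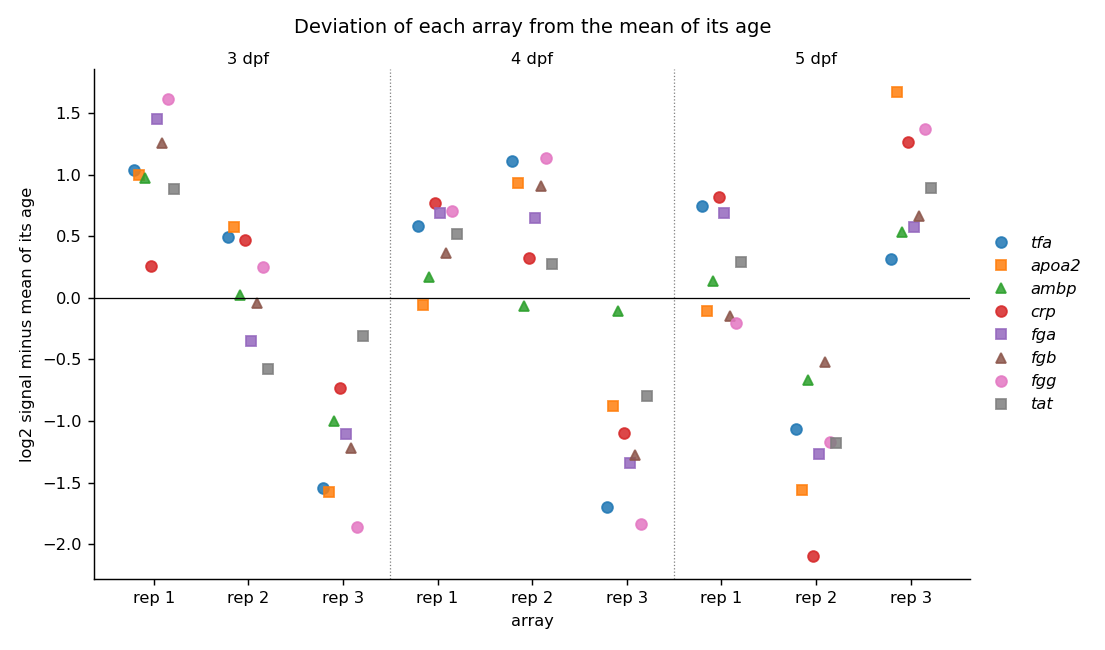
Log2 signal of each gene minus its own mean at that age (vertical axis) on each of the 9 arrays. At 3 dpf replicate 3, at 4 dpf replicate 3 and at 5 dpf replicate 2, all 8 genes lie below 0, and replicate 3 at 5 dpf has all 8 above it.

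After the mean of each age was removed, all 28 pairs of the 8 genes correlated positively over the 9 arrays, with r between 0.64 and 0.98 and a median of 0.81. The points share their arrays and their age means, so the values are descriptive. The closest pair was fgb and fgg (0.98), with fga at 0.90 to fgb and 0.91 to fgg. The loosest were fgb and crp (0.64) and ambp and crp (0.67). tat correlated at 0.91 with fga.

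The shared spread cancels in part when a gene is read against the fibrinogen genes of the same array. The log2 signal of ambp minus the mean of fga, fgb and fgg averaged 3.27 ± 0.33 at 5 dpf and -0.18 ± 0.44 at 3 dpf (SD, n = 3 each). The zero of such a difference depends on the probes, and its change between ages, here 3.45, does not involve that zero. The change can still depend on the probes where signals lie near the floor, as for fgb (2.61) and fgg (3.12) on 3 dpf replicate 3. tat relative to fibrinogen was 1.35 ± 0.18 at 5 dpf and -1.52 ± 0.65 at 4 dpf, and at 3 dpf it was -1.43 ± 0.94, close to the value at 4 dpf. crp relative to fibrinogen was 0.56 ± 0.50 at 4 dpf and -2.52 ± 1.03 at 3 dpf. The 3 dpf signals of crp were all near the floor, at 1.72 to 2.93, so its 3 dpf ratio may mostly follow the fibrinogen genes. tat was also low on 3 dpf replicates 2 and 3, at 2.98 and 3.24, and its 3 dpf ratio has the same limit. For tfa and apoa2 the change of this ratio between 5 and 3 dpf was 0.23 and 0.38, less than the pooled SD of 0.46 for tfa and 0.64 for apoa2. Between 5 and 4 dpf the ratio of tfa changed by 0.68, more than that SD, and it was lowest at 4 dpf. In the signals themselves the pooled SD was 1.29 for tfa and 1.33 for apoa2. For ambp the ratio did not narrow the spread, at 0.77 in the ratio and 0.68 in the signal, because its 4 dpf arrays did not follow the fibrinogen genes. All such ratios were computed after the values had been seen.

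**Figure D4:**
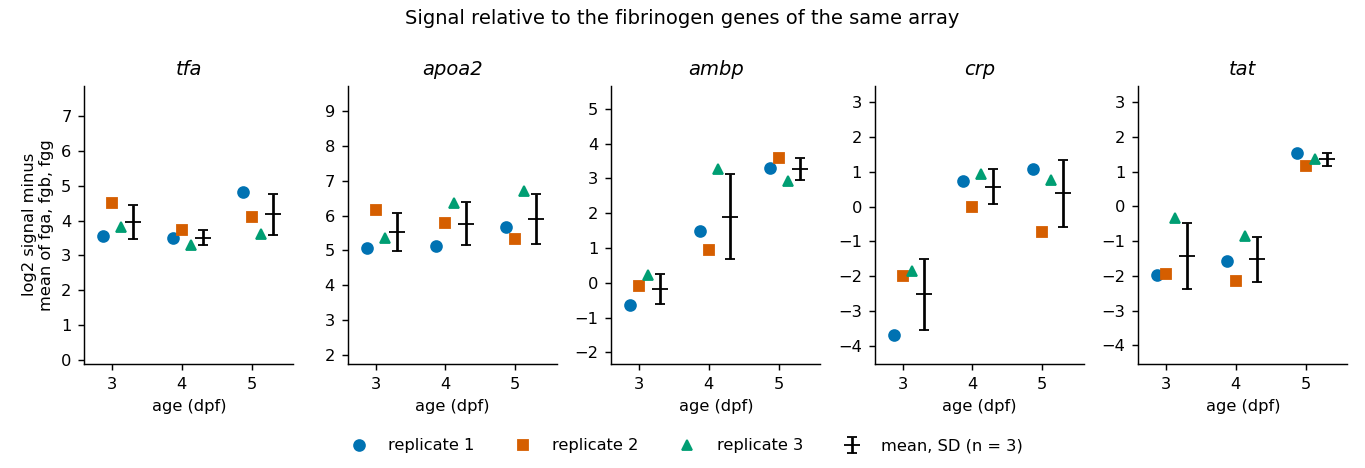
Log2 signal of 5 genes minus the mean log2 signal of fga, fgb and fgg on the same array (vertical axis, 8 log2 units in every panel) at 3, 4 and 5 dpf, with the mean and SD of 3 arrays. apoa2 moves by less than its SD between ages, and tfa is lowest at 4 dpf and 0.68 higher at 5 dpf. ambp and crp lie higher at 4 and 5 dpf than at 3 dpf, where the crp signals were near the floor. tat lies higher at 5 dpf than at 3 and 4 dpf.

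Other liver genes were lowest on the same 3 arrays more often than the array as a whole. Of the genes listed as other secreted liver proteins, 59 of 128 had a probe set, and of other liver enzymes 65 of 116. Among the 59 secreted protein genes 18 (30.5%) were lowest on the same 3 arrays, and among the 65 enzyme genes 17 (26.2%), against 4.59% of all probe sets. With a mean signal of at least 5 the counts were 12 of 21 secreted protein genes and 12 of 36 enzyme genes. Of all probe sets with such a mean they were 464 of 8685. Deviations within an age correlated at 0.8 or more with the mean deviation of the 8 genes in 16 of the 59, in 12 of the 65 and in 1.55% of all probe sets. The 3 arrays were set by the 8 genes, and the lists were chosen with earlier results of these data known. These counts and shares are therefore a description with no test. serpina1l, a serine protease inhibitor related to human alpha-1-antitrypsin, was singled out after its values were seen. Its signals were 9.32, 9.07 and 6.09 at 3 dpf, 10.33, 11.19 and 7.54 at 4 dpf, and 10.66, 7.41 and 11.43 at 5 dpf. These fall on the same 3 arrays, and its difference of 5 dpf minus 3 dpf, 1.67 with a standard error of 1.39, did not pass the test (adjusted p = 0.388, limma).

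The 5 genes whose pattern over all 9 arrays was most like the mean standardised pattern of the 8 were gcdhb (r = 0.98), plg (0.97), ces2a (0.97), apom (0.97) and c9 (0.96). They were found among 965 genes with a probe set of 1 symbol whose age means lay at least 1 log2 unit apart. plg encodes plasminogen, which dissolves fibrin clots. c9 encodes a subunit of the complement pore, apom an apolipoprotein, ces2a a carboxylesterase and gcdhb glutaryl-CoA dehydrogenase, a mitochondrial enzyme of lysine breakdown. gcdhb had signals of 8.92, 8.43 and 7.37 at 3 dpf, 9.80, 9.65 and 8.86 at 4 dpf, and 9.65, 8.65 and 10.20 at 5 dpf, with the same 3 arrays lowest. None of the 5 passed the test between 5 and 3 dpf, with adjusted p from 0.0576 for c9 to 0.240 for plg (limma). The liver lists use another, brighter probe set of c9, whose difference was 2.09 (adjusted p = 0.0543, limma).

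Between 5 and 3 dpf 4.03% of the 124 genes of both lists were called in either direction, against 5.36% of all probe sets. At an unadjusted p under 0.05 the shares were 32.3% and 35.2% (limma). Of the 59 secreted protein genes 2 rose between 5 and 3 dpf and none fell, with 21 of the 59 at an unadjusted p under 0.05 (limma). cp had signals of 4.87, 4.88 and 5.55 at 5 dpf against 3.56, 3.68 and 3.71 at 3 dpf, a difference of 1.45 (standard error 0.20, adjusted p = 0.0157, limma). cfi, a protease that inactivates complement, rose by 1.19 (adjusted p = 0.0484), and its lowest array at 5 dpf was replicate 1, at 8.29, not replicate 2, at 9.02. Neither gene followed the array order of the 8. apoa1a, the main apolipoprotein of high density lipoprotein, was singled out after its values were seen because it went the other way. It had signals of 4.04, 4.67 and 3.15 at 5 dpf against 6.85, 5.80 and 5.53 at 3 dpf, a difference of -2.11 that did not pass (standard error 0.52, adjusted p = 0.0602, limma). Leaving out any 1 of the 3 dpf arrays ended the calls of cp and cfi, and for cfi leaving out 5 dpf replicate 2 or 3 did so too. Setting signals under 4 to 4 also ended both calls, and all 3 dpf signals of cp were under 4. Quantile normalization ended the call of cfi.

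Of the 65 enzyme genes 3 fell between 5 and 3 dpf and none rose. At an unadjusted p under 0.05 there were 19 (29.2%), against 35.2% of all probe sets (limma). aldh1a2, which makes retinoic acid, fell by 1.76 (adjusted p = 0.0094), to 5.30, 5.99 and 5.47 at 5 dpf against 7.38, 7.42 and 7.24 at 3 dpf. sult2st1, a sulfotransferase, fell by 1.79 (adjusted p = 0.0446) and psat1, an enzyme of serine synthesis, fell to 8.68, 8.31 and 8.15 at 5 dpf, against 9.41, 9.42 and 9.61 at 3 dpf (adjusted p = 0.0155). aldh1a2 and psat1 are also known from tissues other than liver. aldh1a2 kept its call without any 1 array. The call of psat1 was lost without 3 dpf replicate 2 or 3 or without 5 dpf replicate 2 or 3. sult2st1 lost its call without any 1 of the 3 dpf arrays or without 5 dpf replicate 2 or 3. Quantile normalization and setting signals under 4 to 4 also ended the call of sult2st1. The balance of directions depended on the arrays. Over both lists 2 genes were higher and 3 lower, while without 5 dpf replicate 2 there were 7 higher and 1 lower, and with all 9 arrays in the fit 8 higher and 5 lower (limma). Without 5 dpf replicate 2 fabp10a, fetub, c9, hp, ces3, cp and itih3a.1 were the 7 called higher. Between 5 and 4 dpf 0 of the 124 genes of both lists passed, against 0.44% of all probe sets. At an unadjusted p under 0.05 there were 22 (17.7%), against 23.3% of all probe sets (limma).

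Between 4 and 3 dpf, hp rose by 1.76 and apoea and aldh1a2 fell. These were 3 of 124 genes (2.42%), against 3.28% of all probe sets called in either direction. hp, haptoglobin, the carrier of free hemoglobin, had signals of 5.61, 5.47 and 4.78 at 4 dpf against 3.88, 3.83 and 2.87 at 3 dpf (adjusted p = 0.0468, limma). Its array order was that of the 8 genes. With the replicate number as a block hp was no longer called. That fit also held the 5 dpf arrays, of which replicates 2 and 3 correlated at -0.07 to 0.04 with same-numbered arrays of the other ages. Blocking on the 3 and 4 dpf pairs alone was not tested. Leaving out any 1 of the 3 or 4 dpf arrays, or 5 dpf replicate 1, ended the call of hp as well. So did quantile normalization and setting signals under 4 to 4. apoea, an apolipoprotein E, fell by 1.66 (adjusted p = 0.0320, limma), a call lost without any 1 of the 4 dpf arrays. It was also lost with signals under 4 set to 4 and with only the 6 arrays of the 2 ages. Its signals at 4 dpf were 3.54 to 3.69.

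Of 20 liver transcription factor genes measured, 1 rose and 1 fell between 5 and 3 dpf. Over all probe sets 5.36% were called in either direction. On the same 3 arrays as the 8 genes 2 of the 20 (10%) were lowest, against 4.59% of all probe sets. Of the 7 factors with a mean signal of at least 5, 0 were. Nothing is read from these counts. cebpd, a factor of the acute phase response, rose by 2.00 (adjusted p = 0.0310, limma), with signals of 9.77, 10.46 and 9.27 at 5 dpf against 8.34, 7.48 and 7.70 at 3 dpf. Its brightest array at 5 dpf was replicate 2, on which the plasma protein genes were lowest. foxa1, a factor of endoderm, fell by 1.09 (adjusted p = 0.0210) between signals of 2.33 to 2.81 at 5 dpf and 3.49 to 3.93 at 3 dpf, all under 4. Without 3 dpf replicate 2 or 3, or 5 dpf replicate 1 or 2, cebpd was not called, nor was foxa1 without any 1 of the 3 dpf arrays or without 5 dpf replicate 2.

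Lists of neighbouring organs and of blood were set against the same array order. Over 18 intestine genes the mean deviations on these 3 arrays were -0.19, -0.14 and -0.18, each the lowest of its age, as in the liver genes and by less. Only 1 of the 18 had a mean signal of at least 5. The intestine list shares apoa4b.1, slc10a2 and cyp3a65 with the other liver lists and hnf4g with the liver transcription factors. It is therefore not independent of them. apoa4b.1, singled out after its values were seen, had signals of 3.75, 4.83 and 3.23 on these 3 arrays. On the remaining arrays it had 6.48 to 7.07, and this fall enters the intestine means. Of 19 genes of the exocrine pancreas, none was lowest on all of those 3 arrays, and the same held for 20 genes of red blood cells, 12 of the lens and 13 of pigment epithelium and pigment cells. Of 29 eye and retina genes 2 were, and so were 2 of the 18 intestine genes. Over all probe sets the share is 4.59%, which in lists of 12 to 29 genes comes to few or none, so nothing is read from these counts. In the pancreas list the lowest array at 5 dpf was replicate 1, with a mean deviation of -0.61, and the highest at 3 dpf was replicate 2, at 0.88, while at 4 dpf the lowest was replicate 3, at -0.38, as in the liver genes. At 5 dpf replicate 3 was the highest array for both, with a mean deviation of 0.91 over the 8 liver genes and 0.82 over the pancreas genes. In the eye and retina list no array deviated by more than 0.10 from the mean of its age. In that list 4 of 29 genes rose between 5 and 3 dpf, pde6ha by 2.87, guca1b by 2.05, rx1 by 1.11 and opn1mw2 by 1.05 (adjusted p from 0.00947 to 0.0293, limma). pde6ha is a subunit of the photoreceptor phosphodiesterase, guca1b an activator of guanylate cyclase, rx1 a retinal transcription factor and opn1mw2 a green opsin. All 4 lost their calls without 3 dpf replicate 3, opn1mw2 and rx1 also without 3 dpf replicate 1 or 5 dpf replicate 2, and rx1 without 3 dpf replicate 2. stra6, the retinol transporter of the pigment epithelium, rose by 1.41 (adjusted p = 0.00351, limma) and kept its call without any 1 array. Of 12 lens genes 0 were called, with 7 (58.3%) at an unadjusted p under 0.05, against 35.2% of all probe sets (limma).

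Of the 19 pancreas genes 6 rose between 5 and 3 dpf (limma), most of them secreted digestive enzymes. The level of the list, as the mean log2 signal over the 19 genes, was 3.51 to 5.00 at 3 dpf, 4.33 to 5.02 at 4 dpf and 5.87 to 7.29 at 5 dpf. ela2l, an elastase, rose by 5.18 (adjusted p = 0.0181), with signals of 7.97, 8.96 and 9.91 at 5 dpf against 3.01, 5.16 and 3.14 at 3 dpf, and it was not called without 3 dpf replicate 1 or 3 or without 5 dpf replicate 2. The others were the amylase amy2a, which rose by 4.67, the elastases ela2, by 4.56, and ela3l, by 4.07, and the chymotrypsins ctrb.2, by 3.99, and ctrl, by 3.42, with adjusted p from 0.0137 for ctrl to 0.0452 for ela3l (limma). Leaving out 3 dpf replicate 3 ended all 6 calls. amy2a, ela2 and ela3l also lost theirs without 3 dpf replicate 1 or 5 dpf replicate 2 or 3, and ela3l without 5 dpf replicate 1. The part of tissue from outside the eye in these signals was not tested. Of the intestine list, agr2 alone of 18 genes passed between 5 and 3 dpf, and it fell by 4.12 (adjusted p = 0.00314). Its signals were 3.22, 3.52 and 2.65 at 5 dpf against 7.34, 7.17 and 7.25 at 3 dpf.

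Red blood cells, which reach the eye with the blood, were measured by 20 genes. hbae3, an embryonic globin, had signals of 12.1 to 14.1 over the 9 arrays, and the mean over the 20 genes ran from 5.05 to 5.70. At 3 dpf its lowest array was replicate 2, and at 5 dpf its highest was replicate 2, the array on which the plasma protein genes were lowest. Of the 20 genes 1 rose between 5 and 3 dpf, tspo, by 1.19 (adjusted p = 0.0367, limma), a gene that many cell types express. Its call was lost without 3 dpf replicate 2 or 3 or without any 1 of the 5 dpf arrays.

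**Figure D5:**
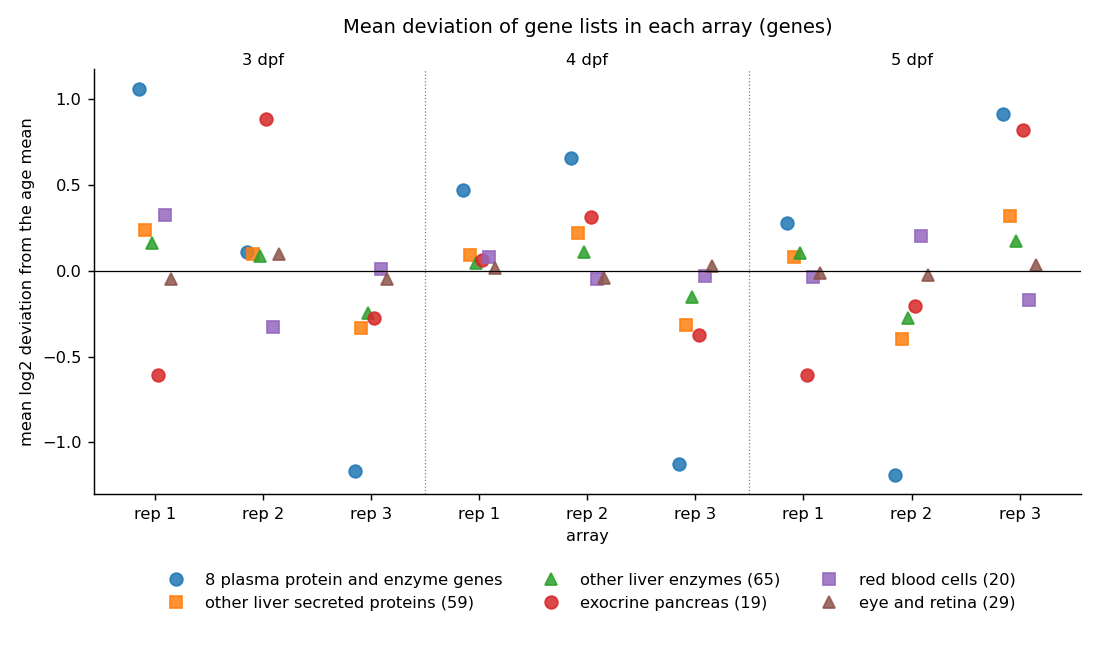
Mean log2 deviation from the mean of the age (vertical axis) over the genes of 6 groups on each of the 9 arrays, with the number of genes in parentheses. The other secreted proteins and enzymes of the liver lie below 0 on the same 3 arrays as the 8 genes. Their list means do so by less, at -0.33, -0.31 and -0.40 for the secreted proteins. These lists hold many dim genes, since 21 of the 59 secreted protein genes and 36 of the 65 enzyme genes had a mean signal of at least 5. The eye and retina genes stay within 0.10 of 0.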

How the data were processed

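RNA of dissected zebrafish eyes was measured on Affymetrix Zebrafish Genome Arrays, 3 each at 3, 4 and 5 dpf, after amplifying labelling. The authors deposited log2 signals made with GCRMA (no version stated), as 1 value per original probe set, of 15617. Probes that match several genes or none were not removed from these values. Whether all 9 arrays were normalized together is not stated. Gene symbols came from the platform annotation, of which 10802 probe sets had 1 symbol, 135 several and 4680 none, and 7 of the 8 members matched RefSeq (GRCz12tu) by Entrez identifier.

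The values were fitted with limma 3.58.1 (lmFit, eBayes) in R 4.3.3, with Benjamini-Hochberg adjustment over 15502 probe sets, 115 controls left out. The 5 against 3 dpf fit used the 6 arrays of those ages, the limits of the study's methods being an adjusted p under 0.05 and a fold of at least 2. Comparisons with 4 dpf used all 9 arrays. Standard errors are those of the fits. Where a listed gene had several probe sets, the brightest on average was used. On simulated data the fit was tested before use. The simulated arrays were drawn independently, so that check does not cover correlated deviations between arrays. The number of arrays limits the precision.

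Replicate numbers of the labels were checked for pairing. After age means were removed, same-numbered arrays correlated at 0.60, 0.50 and 0.44 between 4 and 3 dpf. These were treated as pairs only for the differences within each pair, and no label states a pairing. The main limma fits, with their standard errors and adjusted p, took all arrays as unpaired. Same-numbered arrays correlated at 0.54, 0.01 and 0.04 between 5 and 3 dpf and at 0.72, -0.07 and -0.03 between 5 and 4 dpf. At 5 dpf replicate 2 correlated at 0.50 with 4 dpf replicate 3 and at 0.21 with 3 dpf replicate 3. Replicate 3 at 5 dpf correlated at 0.53 with 4 dpf replicate 2 and at 0.46 with 3 dpf replicate 2. At most 114 probe sets had exactly equal deposited values, with no tolerance, on a pair of arrays.

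The members and the gene lists were chosen with earlier results of these data known. Named were all members, up to 6 called genes of a list by size, and the 5 genes of most similar pattern. Genes named outside this rule are marked as chosen after their values were seen, except those called against 4 dpf or between 4 and 3 dpf and the marker genes. Alternatives were quantile normalization, median centring, a floor of 4 on signals, a mean signal of at least 5, the replicate block, no fold limit, eBayes with trend and robust settings, controls kept, another set of arrays in the fit, any probe set of a gene, and leaving out each array.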

Additional observations from a re-analysis of the deposited data

How the results depend on the processing

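The 8 genes kept the sign of their differences of 5 dpf minus 3 dpf and 4 dpf minus 3 dpf under every alternative run, including each array left out, while between 5 and 4 dpf apoa2, crp, fga, fgg and tfa changed sign in 1 or 2 of 15 alternatives. Each gene has 1 probe set, so averaging over probe sets was not run, and fgb, under a mean of 5, has no value with that limit. Leaving out 1 array gave differences of 5 dpf minus 3 dpf of 4.02 to 5.01 for ambp, 3.39 to 4.43 for tat and 3.33 to 5.01 for crp, given as values only, since these genes were chosen for such differences. Probe sets called between 5 and 3, 4 and 3, and 5 and 4 dpf numbered 831, 509 and 68. With signals under 4 set to 4 they numbered 409, 286 and 12, and with no fold limit 1755, 2077 and 1251. With a mean signal of at least 5 there were 10 between 5 and 4 dpf. Leaving out 1 array gave 259 to 797, 329 to 527 and 19 to 86, the lowest being those without replicate 3 at 3 dpf, replicate 1 at 4 dpf and replicate 2 at 4 dpf. Of the 124 other liver genes 5, 3 and 0 were called. Between 5 and 3 dpf 3 were called after quantile normalization, 2 with the floor of 4, 11 with no fold limit, 13 with trend and robust settings and 13 with all 9 arrays in the fit. Between 4 and 3 dpf 1 was called with the floor, 1 with a mean of at least 5 and 16 with no fold limit, and between 5 and 4 dpf 8 were called with no fold limit. Leaving out 1 array gave 1 to 8, 1 to 4 and 0 to 3, with the 8 and the 3 found without 5 dpf replicate 2. In the fit with a replicate block 921, 559 and 84 probe sets and 7, 3 and 0 liver genes were called, and of the genes named from the lists cfi, ela3l, rx1 and tspo between 5 and 3 dpf and hp between 4 and 3 dpf lost their calls. Replicates 2 and 3 at 5 dpf correlated at -0.07 to 0.04 with same-numbered arrays of the other ages. Replicate 1 at 5 dpf correlated at 0.54 with replicate 1 at 3 dpf and at 0.72 with replicate 1 at 4 dpf. Between 5 and 3 dpf the floor of 4 also ended the calls of amy2a, cebpd, ctrb.2, ela3l, foxa1, opn1mw2, rx1 and tspo. Quantile normalization ended that of ela3l. The causes of these changes were not tested. Signals near 1 to 3, as for crp at 3 dpf, lie close to the lowest values of the arrays, and the differences of crp shrank with the floor of 4.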
